A study of Mus musculus with 48 samples.

Results

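TRBV26 is the mouse TCR β variable segment that encodes the Vβ3 chain. It was described in CD4+ and CD8+ T cells of tumors and of tumor-draining lymph nodes (dLNs). Its members were all clones whose V segment was given as TRBV26, which made up 30075 of the 959731 clone entries in 48 libraries and were present in every library. TRBV26 was 1 of 26 V segments in the deposited files. It was chosen for its high share of reads in CD8+ tumors, so every value of that share is a description without a test.

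The samples came from 4 female C57BL/6 mice (C57BL/6J in the study's methods) of 8 weeks, numbered 5 to 8, which carried Lewis lung carcinoma (LLC), a mouse lung tumor line, under the skin of both sides of the back. They received 500000 LLC cells, and tumors and dLNs were taken on day 13. The 4 groups were CD8+ tumor, CD4+ tumor, CD8+ dLN and CD4+ dLN. Each group had 1 left and 1 right repertoire per mouse, which gave 8 repertoires per group and 32 in all. All sorted cells were TCRβ+, negative for an intravenous CD45.2 stain and negative for lineage markers. The dLN cells were also CD44hi, a marker of antigen-experienced T cells, whereas the tumor cells were not selected on CD44, so tissue and CD44 gate cannot be told apart. No tumor-free mouse was among the samples. The files hold TRB clones only, so the sorted phenotypes could not be checked against other genes.

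A TCR β chain is made when 1 V, 1 D and 1 J segment are joined in a developing T cell. The V segment encodes the first and second complementarity determining regions, and the third (CDR3) spans the V-D-J junction, where bases are trimmed and added at random. T cells of 1 mouse that carry the same rearrangement are counted as a clone, although the same sequence can also arise more than a single time. Entries with the same V, J and CDR3 bases were taken as 1 clone. The read share and the clone share are given side by side. The read share counts every read and rises when a few clones expand, and the clone share counts each distinct clone a single time. Vβ3 is also known as a target of superantigens, such as staphylococcal enterotoxin A, which engage the V segment largely independently of the CDR3. The libraries were made from RNA without molecular identifiers, so more cells of a clone and more TCR mRNA per cell cannot be told apart.

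The genomic segments that meet in the leading TRBV26 clones are shown first, because the shared CDR3 positions described later lie partly inside them. In GRCm38, Trbv26 (ENSMUSG00000076479.3, a TCR V gene) lies on the + strand of chromosome 6 from 41227505 to 41227993 in 2 exons, and the CDR3 begins in its last exon. The lines below give the end of the V segment from the conserved cysteine codon (chr6:41227977-41227993), the whole of TRBD1 (chr6:41533201-41533212), and the CDR3 part of TRBJ1-1 (chr6:41533864-41533883), TRBJ1-2 (chr6:41534001-41534020), TRBJ1-4 (chr6:41534811-41534833), TRBJ1-5 (chr6:41535084-41535105) and TRBJ1-6 (chr6:41535554-41535578). All are 5′ to 3′ on the + strand, and capitals mark the asparagine codon of each J segment that falls on CDR3 position 10 in the clones below.
TRBV26 end: tgtgccagcagtctgtc
TRBD1: gggacagggggc
TRBJ1-1: caAACacagaagtcttcttt
TRBJ1-2: caAACtccgactacaccttc
TRBJ1-4: tttccAACgaaagattatttttc
TRBJ1-5: taacAACcaggctccgcttttt
TRBJ1-6: ttcctatAATtcgcccctctacttt

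Frequent CD8+ tumor clones with TRBV26 in the 4 mice are given by line because most of the TRBV26 reads lay in such clones and several resembled each other between mice. Clones are named by their CDR3 amino acids from position 5 on, after the CASS that begins each of them. Positions are counted from 1 at the cysteine, and capitals mark the codons of positions 6, 8 and 10. The first 11 clones listed all have arginine (R) at position 6, glycine (G) at position 8 and asparagine (N) at position 10, called the R6-G8-N10 pattern hereafter. The last 3 lines are frequent clones without the pattern.
Mouse 5, LRTGVNSDYTF, TRBJ1-2: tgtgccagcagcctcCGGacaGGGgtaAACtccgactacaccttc
Mouse 5, LRTGSNTEVFF, TRBJ1-1: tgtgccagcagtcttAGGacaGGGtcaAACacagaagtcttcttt
Mouse 5, SRTGWNSPLYF, TRBJ1-6: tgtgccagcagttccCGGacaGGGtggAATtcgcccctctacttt
Mouse 6, LRQGYNSPLYF, TRBJ1-6: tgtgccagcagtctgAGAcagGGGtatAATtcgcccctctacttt
Mouse 6, LRAGSNSPLYF, TRBJ1-6: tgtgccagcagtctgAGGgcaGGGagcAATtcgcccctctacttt
Mouse 6, LRTGYNSPLYF, TRBJ1-6: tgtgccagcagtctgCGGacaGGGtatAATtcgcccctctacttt
Mouse 7, LRTGYNSPLYF, TRBJ1-6: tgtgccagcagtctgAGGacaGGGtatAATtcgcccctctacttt
Mouse 7, PRTGYNSPLYF, TRBJ1-6: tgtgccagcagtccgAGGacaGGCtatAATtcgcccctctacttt
Mouse 8, LRAGYNQAPLF, TRBJ1-5: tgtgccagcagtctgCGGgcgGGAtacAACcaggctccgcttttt
Mouse 8, LRTGYNSPLYF, TRBJ1-6: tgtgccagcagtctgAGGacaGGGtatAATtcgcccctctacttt
Mouse 8, LRGGYNSPLYF, TRBJ1-6: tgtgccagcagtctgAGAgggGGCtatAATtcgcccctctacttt
Mouse 5, LGGNSGNTLYF, TRBJ1-3: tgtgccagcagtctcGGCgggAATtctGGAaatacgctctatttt
Mouse 6, SGTGPSDYTF, TRBJ1-2: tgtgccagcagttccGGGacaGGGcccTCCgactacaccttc
Mouse 7, LRFNERLFF, TRBJ1-4: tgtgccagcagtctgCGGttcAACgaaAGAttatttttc

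The deposited libraries held 326582 to 4840722 reads. Reads were then drawn at random, 6 for each sorted cell, and 131070 to 2035380 reads and 3595 to 47074 clones remained per library, of which 161 to 1304 clones and 8326 to 431466 reads were of TRBV26. With fragments of a tumor pooled, the 95% Wilson interval of a TRBV26 read share on the estimated number of cells was at most 0.265 percentage points to either side. These intervals cover counting error only. The CD8+ tumors of mouse 7 stood apart from those of the other mice in TRBV26.

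TRBV26 took a large part of the CD8+ tumor reads in 3 of 4 mice, while its share of distinct CD8+ tumor clones was small and nearly equal in all mice. Mouse 5 had a read share of 22.8% on the left and 22.7% on the right, mouse 6 of 25.5% and 24.2%, and mouse 8 of 28.9% and 22.7%. Mouse 7 was low on both sides, with 2.85% and 3.06%. The mean was 19.1% ± 10.8 (SD, n = 4 mice) and 24.4% without mouse 7. The 2 fragments of a tumor, sequenced as separate libraries, differed by at most 1.203-fold in the CD8+ tumors. By distinct clones, TRBV26 made up 2.43% to 2.62% of the CD8+ tumor repertoires, with a median of 2.52%. Mouse 7 had the lowest mean, 2.47%, and the other mice 2.53% to 2.57%. TRBV26 ranked highest of 25 V segments by mean read share in CD8+ tumors and 16th by clone share. The next segment by reads was TRBV4, with 10.5% ± 5.87 (SD, n = 4 mice), and the SDs of these 2 segments overlapped. By clones, TRBV26 stood between TRBV15, with 3.29% ± 0.119, and TRBV20, with 1.86% ± 0.0722 (SD, n = 4 mice each).

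**Figure D1:**
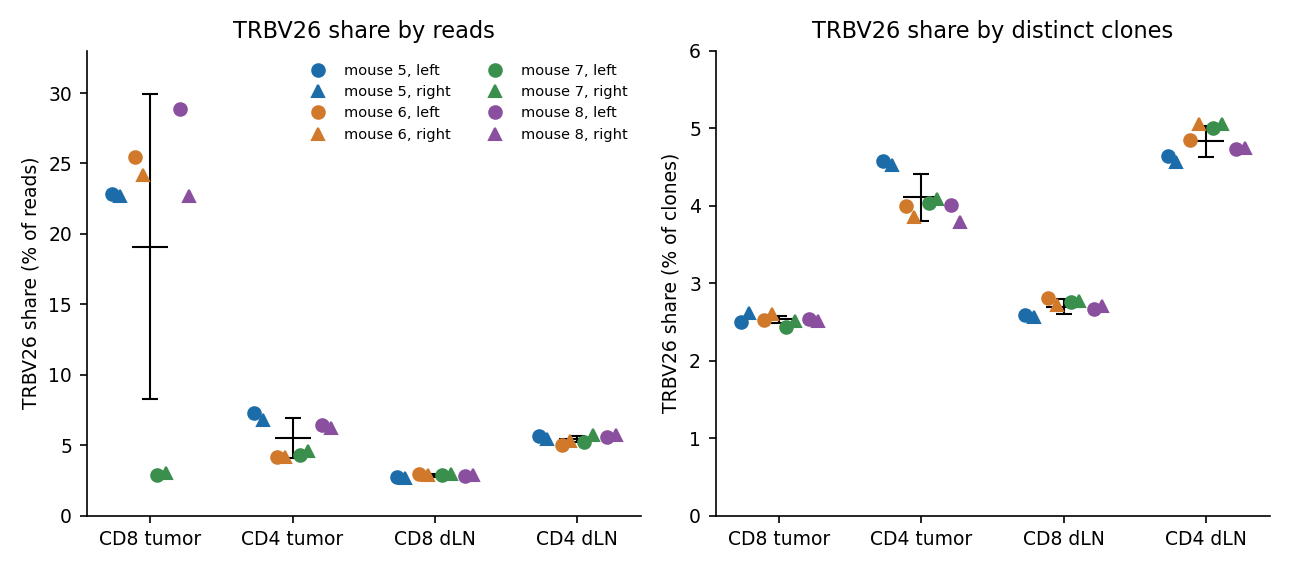
TRBV26 share of reads (left, %) and of distinct clones (right, %) in each repertoire, with circles for left and triangles for right samples, 1 colour per mouse, and the mean ± SD of the 4 mice in black. By reads, 6 of the CD8+ tumors lie between 22.7% and 28.9% and those of mouse 7 at 2.85% and 3.06%, whereas by clones all 8 CD8+ tumors lie between 2.43% and 2.62%.

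In the nodes, TRBV26 was less frequent among CD8+ than among CD4+ T cells. In CD8+ dLNs its read share ranged from 2.70% to 2.99%, with a median of 2.89%, and in CD4+ dLNs it ranged from 4.99% to 5.73%, with a median of 5.51%. No CD8+ dLN overlapped a CD4+ dLN. The log2 ratio of CD8+ to CD4+ was -0.93 ± 0.04 (SE, n = 4 mice per group; limma, adjusted p = 3.26e-07), and the exact two-sided permutation p was 0.0286, the smallest that 4 and 4 mice allow. By the same limma threshold 20 of 25 V segments were called in this comparison, 80%, and 11 of them, 44% of the 25, were lower in CD8+ dLNs. By clones, TRBV26 made up 2.56% to 2.81% of CD8+ dLNs and 4.56% to 5.06% of CD4+ dLNs, again without overlap, as for 88% of the V segments. The log2 ratio of the clone shares was -0.84 ± 0.04 (SE; limma, adjusted p = 5.19e-08; exact permutation p = 0.0286). Under the alternatives that kept all mice, edgeR and DESeq2 among them, this ratio ranged from -0.86 to -0.46 and was called in each. Here 23 of 25 V segments were called, 92%, with 9 higher and 14 lower in CD8+ dLNs, or 10 higher and 9 lower by DESeq2. A difference between the subsets in the node was therefore common to nearly all V segments. By limma on shares, the median log2 ratio of the clone share over all segments was -0.37, against -0.84 for TRBV26.

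In CD4+ T cells the tumor and the node were alike in the mean read share of TRBV26, but the tumors spread more widely between mice. For left and right, the CD4+ tumor read share was 7.30% and 6.82% in mouse 5 and 6.44% and 6.21% in mouse 8. It was 4.17% and 4.15% in mouse 6 and 4.29% and 4.61% in mouse 7. Mice 5 and 8 were therefore above all CD4+ dLNs, and mice 6 and 7 were below them. The means were 5.50% ± 1.42 for CD4+ tumors and 5.46% ± 0.217 for CD4+ dLNs (SD, n = 4 mice each). The log2 ratio was -0.02 ± 0.18 (SE; limma, adjusted p = 0.951; exact permutation p = 0.914). In this comparison 7 of 25 V segments were called, 28%, with 2 higher and 5 lower in tumors, or 3 higher and 4 lower by edgeR and 2 each way by DESeq2.

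The share of distinct clones with TRBV26 was lower in CD4+ tumors than in CD4+ dLNs when tested on shares. It ranged from 3.79% to 4.58% in tumors, with a median of 4.02%, and from 4.56% to 5.06% in dLNs, with a median of 4.80%. The mouse means did not overlap, since the highest tumor value was 4.55% and the lowest node value 4.61%, and the mice of the groups were likewise apart for 60% of the V segments. The log2 ratio was -0.23 ± 0.06 (SE; limma, adjusted p = 0.00978; exact permutation p = 0.0286). In all, 14 of 25 V segments were called, 56%, with 5 higher and 9 lower in tumors, and the median log2 ratio over all segments was -0.15. With the counts scaled over all segments, the log2 ratio of TRBV26 was -0.08 by edgeR (adjusted p = 0.265) and -0.07 by DESeq2 (adjusted p = 0.381), with 7 higher and 6 lower by edgeR and 8 higher and 6 lower by DESeq2. The limma call was also lost without mouse 6 (adjusted p = 0.0612), mouse 7 (0.0723) or mouse 8 (0.0506).

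Across the groups, the order of the mean TRBV26 read share was CD8+ tumor, CD4+ tumor, CD4+ dLN and CD8+ dLN. The first 3 groups overlapped with their neighbours in this order, and the CD8+ dLNs lay below the CD4+ dLNs. The order by clone share was CD4+ dLN with 4.83%, CD4+ tumor with 4.11%, CD8+ dLN with 2.70% and CD8+ tumor with 2.53%, with no overlap of mouse means between neighbours, although for CD8+ dLN and CD8+ tumor the gap was between 2.574% and 2.567%. Of all V segments tested by clone share, 60% did not overlap between CD4+ tumors and CD4+ dLNs, 72% between CD4+ tumors and CD8+ dLNs and 66.7% between CD8+ dLNs and CD8+ tumors. By read share, TRBV26 ranked 6th in CD4+ tumors, between TRBV16 with 5.61% ± 1.12 and TRBV5 with 5.41% ± 0.244. It ranked 8th in CD4+ dLNs, between TRBV31 with 5.58% ± 0.427 and TRBV16 with 5.21% ± 0.361, and these neighbours lay within their SDs of each other. In CD8+ dLNs it ranked 16th by both measures, between TRBV19 with 3.196% ± 0.516 and TRBV31 with 1.75% ± 0.131 by reads, and between TRBV17 with 3.57% ± 0.197 and TRBV31 with 1.99% ± 0.0538 by clones. By clones it ranked 10th in both CD4+ groups. In tumors its neighbours were TRBV13-3 with 5.53% ± 0.229 and TRBV20 with 4.07% ± 0.239, and in dLNs they were TRBV16 with 5.74% ± 0.102 and TRBV20 with 4.42% ± 0.202 (SD, n = 4 mice each).

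The V segments whose clone share moved most like that of TRBV26 were TRBV2 and TRBV31. Pearson's r of the log2 clone share over the 16 mouse and group values was 0.989 for TRBV2 and 0.982 for TRBV31, the highest of 23 segments compared. These values share mice and libraries and come from 4 groups, so r mainly describes the group means. TRBV2 had a mean clone share of 1.53% in CD8+ tumors, 2.95% in CD4+ tumors, 1.64% in CD8+ dLNs and 3.87% in CD4+ dLNs. Like TRBV26, it was lower in both CD8+ groups than in both CD4+ groups.

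A handful of clones held nearly all TRBV26 reads of the CD8+ tumors in mice 5, 6 and 8. Within TRBV26, the 10 most frequent clones held 97.7%, 96.8% and 96.6% of the reads in these mice and 62.9% in mouse 7. The corresponding values in CD4+ tumors were 25.3% to 52.0%, in CD4+ dLNs 11.9% to 30.7% and in CD8+ dLNs 6.73% to 11.1%. The single most frequent TRBV26 clone held 16.8% to 55.7% of the TRBV26 reads in CD8+ tumors and 1.35% to 2.36% in CD8+ dLNs.

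An abundant clone was one with at least 0.1% of the CD8+ tumor reads as a mean of left and right. There were 34 abundant TRBV26 clones among 293 abundant clones of all V segments, 11.6%. They numbered 7, 9, 7 and 11 in mice 5, 6, 7 and 8 and together held 22.1%, 23.9%, 1.70% and 24.97% of the CD8+ tumor reads. The least frequent of them was LRTGSNTEVFF in mouse 6 with 0.106%, and the most frequent clone under the threshold was LRGADERLFF in mouse 8 with 0.0917%. Mouse 7 had as many abundant TRBV26 clones as mouse 5, but none of them reached 1%, whereas 3, 5 and 5 did in mice 5, 6 and 8. When the abundant clones of all V segments were set aside, TRBV26 held 2.82%, 4.03%, 2.99% and 3.56% of the remaining CD8+ tumor reads in mice 5 to 8. On this remainder mouse 7 lay between the other mice. The abundant clones set aside held 97.3%, 96.4%, 57.6% and 96.8% of the TRBV26 reads in mice 5 to 8. The likeness of the remainders therefore follows in part from the threshold.

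The leading clones were each found on both sides at similar frequency. In mouse 5, LGGNSGNTLYF with TRBJ1-3 made up 9.56% of the left and 7.80% of the right CD8+ tumor reads, and was the most frequent of all CD8+ tumor clones of that mouse. It was followed by LRTGVNSDYTF with TRBJ1-2 at 7.02% and 9.28%, and LRTGSNTEVFF with TRBJ1-1 at 3.05% and 2.62%. LRRGRGSNTEVFF with TRBJ1-1 (0.968% and 0.959%) and SRTGWNSPLYF with TRBJ1-6 (0.848% and 0.683%) came next. Of these 5 clones, 4 have arginine at position 6.

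In mouse 6 a single clone dominated. LRQGYNSPLYF with TRBJ1-6 made up 14.6% of the left and 13.1% of the right CD8+ tumor reads, the highest frequency of any clone in that mouse. SGTGPSDYTF with TRBJ1-2 followed at 4.29% and 4.27%, and LRAGSNSPLYF with TRBJ1-6 at 1.86% and 2.32%. RRTGTGNTLYF with TRBJ1-3 (1.30% and 1.39%) and LRTGYNSPLYF with TRBJ1-6 (1.28% and 0.972%) completed the 5 most frequent.

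Mouse 8 had 2 dominant TRBV26 clones, both with the R6-G8-N10 pattern. LRAGYNQAPLF with TRBJ1-5 made up 13.9% of the left and 9.29% of the right CD8+ tumor reads. LRTGYNSPLYF with TRBJ1-6 made up 6.17% and 5.18%. RLYEQYF with TRBJ2-7 (3.09% and 2.58%), LSRGISNERLFF with TRBJ1-4 (1.87% and 1.49%) and LRGGYNSPLYF with TRBJ1-6 (1.36% and 1.59%) were next, and the first of these has a CDR3 of only 11 residues.

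In mouse 7 the same kinds of CDR3 were present at low frequency. Its most frequent TRBV26 clone was LRFNERLFF with TRBJ1-4, at 0.450% and 0.548%, which ranked 26th among all CD8+ tumor clones of that mouse. It was followed by LRTGYNSPLYF with TRBJ1-6 (0.371% and 0.294%), PRTGYNSPLYF with TRBJ1-6 (0.217% and 0.244%), LRTGSNQAPLF with TRBJ1-5 (0.181% and 0.218%) and LGGNSGNTLYF with TRBJ1-3 (0.205% and 0.180%). The amino acid sequence of the last one was that of the leading clone of mouse 5, from other bases.

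Left and right shares of the 34 abundant clones had a median ratio of 1.201, higher to lower, and for 3 clones the ratio was above 2. The highest ratio, 21.1, was that of a LRTGSNTEVFF clone of mouse 8. Its share was 0.576% and 0.319% in the fragments of the left tumor and 0% and 0.0323% in those of the right tumor, so it was low in both right fragments.

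The abundant clones shared sequence features that did not enter their choice. Of the 34 clones, 25 had arginine at position 6, and 24 of these used a TRBJ1 segment. The full R6-G8-N10 pattern was found in 17 clones, 50%, with 3 of 7, 5 of 9, 3 of 7 and 6 of 11 in mice 5 to 8. All 17 had a CDR3 of 15 residues and a TRBJ1 segment: 8 used TRBJ1-6, 5 TRBJ1-1, 2 TRBJ1-5, 1 TRBJ1-2 and 1 TRBJ1-4. Position 5 was leucine in 14 of them, position 7 was threonine in 12, and position 9 was serine or tyrosine in 7 each. Among the 259 abundant clones of other V segments, 0 had the pattern. The pattern was chosen after these sequences were seen, so no test was made of it.

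The 3 positions had different origins in the sequence. In all 17 clones with the pattern, the whole codon of N10 lay in bases that match the J segment, as the capitals in the J lines show. The codon of R6 lay beyond the match to TRBV26 in all 17, which ended after 11 to 15 bases. The codon of G8 lay within a run of at least 6 bases of TRBD1 in 13 of the 17, as in the acaggg of most RTG clones. Between the matches to V and J lay 8 to 15 bases, with a median of 11. These are matches of letters and do not show which base was added during joining.

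**Figure D2:**
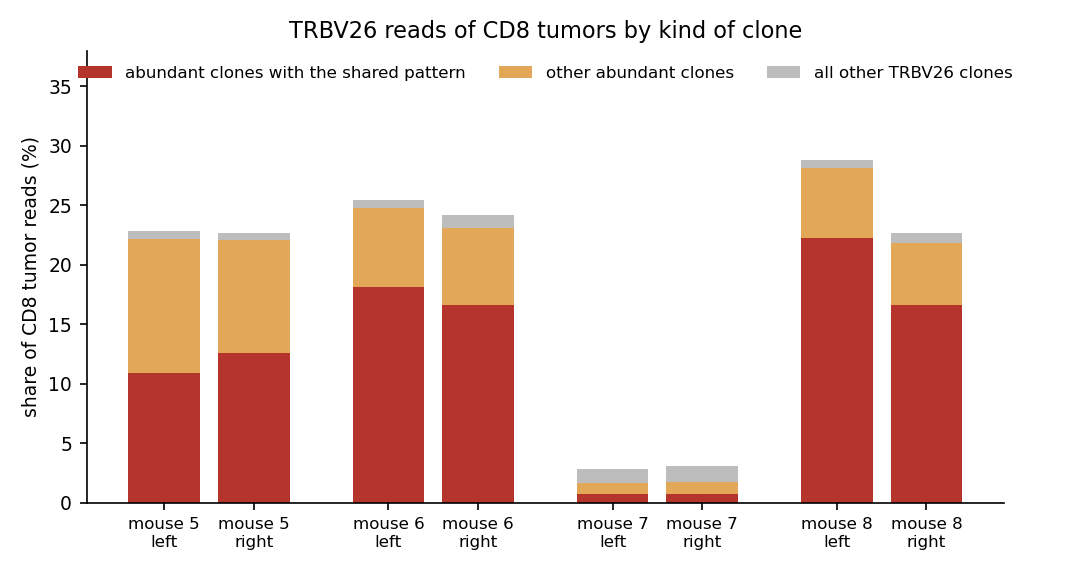
Share of CD8+ tumor reads held by TRBV26 in the left and right tumor of each mouse (%), divided into abundant clones with the R6-G8-N10 pattern (red), other abundant clones (yellow) and all other TRBV26 clones (grey). As means of both sides, abundant clones with the pattern hold 11.8%, 17.4%, 0.762% and 19.4% of the reads in mice 5 to 8, and the grey remainder is between 0.621% and 1.25% in every mouse.

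By reads, clones with the R6-G8-N10 pattern held 28.0% to 75.4% of TRBV26 in the CD8+ tumors of a mouse, and as mouse means at most 5.51% in any other group. The pattern was read from clones abundant in CD8+ tumors, so its high share there follows from the choice. In CD8+ tumors they held 48.3% and 55.9% of the TRBV26 reads on the left and right of mouse 5, 71.7% and 69.7% in mouse 6, 29.1% and 26.98% in mouse 7, and 77.2% and 73.6% in mouse 8. Their mean was 56.5% ± 21.5 (SD, n = 4 mice). In CD8+ dLNs the mouse means ranged from 1.93% to 5.51%, with the lowest in mouse 7, in CD4+ tumors from 0.0135% to 0.696%, and in CD4+ dLNs from 0.214% to 0.320%.

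By distinct clones, the pattern was far less prominent. It was found in 9 to 22 TRBV26 clones per CD8+ tumor repertoire, 8 to 18 per CD8+ dLN, 1 to 7 per CD4+ tumor and 0 to 3 per CD4+ dLN. As a share of distinct TRBV26 clones this was 1.83% ± 0.811 in CD8+ tumors, 1.09% ± 0.0968 in CD8+ dLNs, 0.729% ± 0.487 in CD4+ tumors and 0.304% ± 0.0524 in CD4+ dLNs (SD, n = 4 mice each). Mouse 7 had the lowest share in CD8+ tumors, 0.653%, against 2.03% to 2.52% in the other mice. Clones 1 base from a far more frequent clone were kept in these counts, and the shares without them are not given here. Among distinct clones of all other V segments, the pattern was present in 0.454% ± 0.0462 in CD8+ tumors, 0.410% ± 0.0159 in CD8+ dLNs, 0.336% ± 0.0894 in CD4+ tumors and 0.285% ± 0.0107 in CD4+ dLNs (SD, n = 4 mice each). In both CD4+ groups the ranges of TRBV26 and of the other V segments overlapped. In CD4+ tumors mouse 7 had 0.263% in TRBV26 against 0.380%, and in CD4+ dLNs mouse 6 had 0.229% against 0.278%. The pattern was read from abundant TRBV26 clones of these mice, many of which were also in their CD8+ dLNs, so a higher share in TRBV26 follows in part from the choice. Arginine at position 6 alone was found in 11.7% to 13.8% of distinct TRBV26 clones in CD8+ tumors, where 10.2% to 10.6% of other clones had it. In CD8+ dLNs it was in 11.3% to 12.9% of TRBV26 clones and 10.3% to 10.7% of others, in CD4+ tumors in 7.09% to 10.5% and 9.54% to 10.3%, and in CD4+ dLNs in 6.30% to 9.62% and 8.45% to 9.13%.

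Similar CDR3 sequences recurred between mice among the abundant clones. Of 428 pairs of abundant TRBV26 clones from different mice, 19 had the same length and at most 1 different amino acid, and 11 of these were identical. Each nucleotide form was a clone of its own, so a CDR3 with several forms entered several pairs. The 11 identical pairs were all of LRTGSNTEVFF, LRTGYNSPLYF or LGGNSGNTLYF. All 19 pairs shared the J segment, and in 17 both clones had the R6-G8-N10 pattern. They involved 15 of the 34 clones, with 2, 4, 3 and 6 clones from mice 5 to 8. Without mouse 5, 6, 7 or 8 the number of pairs was 14, 7, 12 or 5. For comparison, 19 pairs are 4.44% of the TRBV26 pairs, and among abundant clones of the other V segments 43 of 1793 pairs within the same segment were as similar, 2.40%. By share of pairs, TRBV20 was above TRBV26, with 17 of 62, 27.4%, from 13 abundant clones, and so was TRBV12-1, with 2 of 36, 5.56%. TRBV4, with 30 abundant clones, had 13 of 328, 3.96%, and TRBV5, with 36, had 2 of 479, so similar pairs were not particular to TRBV26.

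Most identical CDR3 sequences came from different nucleotide sequences. Of the 11 pairs with identical amino acids, 10 differed by 1 to 5 bases. LRTGSNTEVFF was encoded by 5 nucleotide sequences in the CD8+ tumors, and its summed share was 2.84% in mouse 5, 0.186% in mouse 6, 5.52e-05% in mouse 7 and 0.709% in mouse 8. In mouse 8 alone, 3 abundant clones encoded it, with 0.295%, 0.233% and 0.182%. Their sequences follow with that of mouse 6, since together with that of mouse 5 above they are the abundant forms of this CDR3, and they differ in the leucine codon, the arginine codon or the codon before N10.
Mouse 6, LRTGSNTEVFF: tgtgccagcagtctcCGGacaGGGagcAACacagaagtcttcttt
Mouse 8, LRTGSNTEVFF, 0.295%: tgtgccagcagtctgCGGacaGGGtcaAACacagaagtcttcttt
Mouse 8, LRTGSNTEVFF, 0.233%: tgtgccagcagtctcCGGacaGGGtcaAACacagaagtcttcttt
Mouse 8, LRTGSNTEVFF, 0.182%: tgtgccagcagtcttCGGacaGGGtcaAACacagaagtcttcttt

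The remaining pair was identical in its bases. LRTGYNSPLYF had the same nucleotide sequence in mouse 8, with a mean share of 5.68%, and in mouse 7, with 0.332%, a ratio of 17.1. The clone was found in both CD8+ dLNs of mouse 8, at 0.0488% and 0.0682%, and in neither CD8+ dLN of mouse 7. In mouse 6 the same CDR3 was encoded with 1 different base, at 1.12%. Of the 34 abundant clones, 10 were found with the same bases in the CD8+ tumors of another mouse, and all but 3 of these 10 at no more than 0.00104%. The 3 were the shared LRTGYNSPLYF clone, counted in mice 7 and 8, and 1 LRTGSNTEVFF clone of mouse 8, found at 0.0799% in mouse 6. Whether reads passed between libraries was not tested.

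The similar pairs without the pattern joined LRANTEVFF of mouse 6 (0.781% and 0.596%) with RRANTEVFF of mouse 8 (0.0753% and 0.158%), both of 13 residues, and LGGNSGNTLYF of mice 5 and 7. Among all 6983 TRBV26 CDR3 amino acid sequences in CD8+ tumors, 6473 were found in 1 mouse and 18 in all 4.

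Most abundant CD8+ tumor clones were found in the nodes at much lower frequency. Of the 34 clones, 26 were present in both CD8+ dLNs of their mouse, 3 in 1 of them and 5 in neither, where 3 reads would be 0.000561% to 0.000972% of a library. The highest frequency in a CD8+ dLN was 0.0943%, that of LRTGVNSDYTF in the left dLN of mouse 5. For the 28 clones with more than 3 reads in the CD8+ dLNs of their mouse, the tumor share was 5.35 to 881 times the CD8+ dLN share, with a median of 69.6. A further clone was found there as 1 read. Because abundance in the tumor chose these clones, this ratio is a description of the choice as well as of the nodes. Summed over the abundant clones, the CD8+ dLN share was 0.308% and 0.111% on the left and right of mouse 5, 0.134% and 0.129% in mouse 6, 0.0352% and 0.0524% in mouse 7, and 0.121% and 0.217% in mouse 8. Mouse 7 was the lowest on both sides in the nodes as it was in the tumors.

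**Figure D3:**
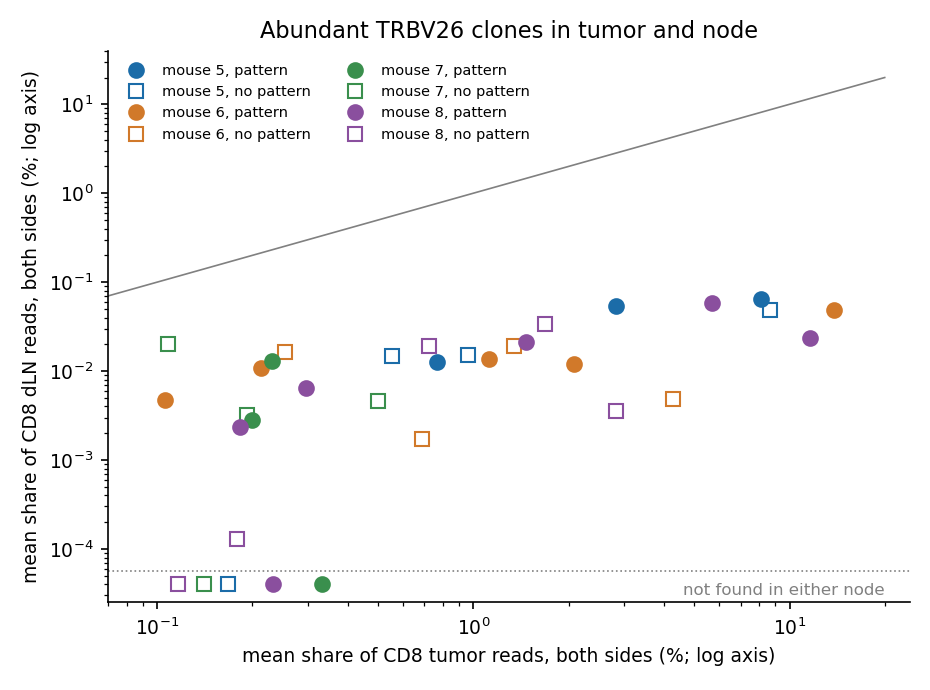
Mean share of CD8+ tumor reads (horizontal, %, log axis) and of CD8+ dLN reads (vertical, %, log axis) for the 34 abundant TRBV26 clones, with filled circles for clones with the R6-G8-N10 pattern, open squares for the others, 1 colour per mouse, and a grey line at equal shares. All 29 clones found in a node lie under the line, by 5.35-fold or more, and the 5 clones found in neither node are placed under the dotted line.

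The most frequent TRBV26 clones of the nodes and of the CD4+ tumors were of other kinds, except in CD8+ dLNs. In CD8+ dLNs the leading TRBV26 clone was LRTGVNSDYTF in mouse 5, LRQGYNSPLYF in mouse 6 (0.0564% and 0.0413%) and LRTGYNSPLYF in mouse 8, all abundant in the tumors of the same mouse. In mouse 7 it was PGHYAEQFF with TRBJ2-1, at 0.0503% and 0.00861%, which was at 0.000515% and 0.000736% in the CD8+ tumors.

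In CD4+ tumors the leading TRBV26 clone of each mouse was smaller than its leading CD8+ tumor clone and lacked the pattern. LQGTEVFF with TRBJ1-1 made up 1.87% and 1.41% of the CD4+ tumor reads in mouse 5 and 0.142% and 0.152% of its CD4+ dLN reads. LGLANTGQLYF with TRBJ2-2 made up 0.559% and 0.602% in mouse 8. The leading clones of mice 6 and 7, GQLRSPLYF with TRBJ1-6 (0.169% and 0.163%) and PQGREQYF with TRBJ2-7 (0.173% and 0.165%), were lower. The mice with the higher CD4+ tumor read share of TRBV26, 5 and 8, were those with the larger leading clones.

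In CD4+ dLNs the leading clones were SEYEQYF with TRBJ2-7 in mouse 5 (0.463% and 0.418%), LGQGAAETLYF with TRBJ2-3 in mouse 6 (0.0762% and 0.0625%), LGTGGYEQYF with TRBJ2-7 in mouse 7 (0.214% and 0.180%) and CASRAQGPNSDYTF, written whole because it begins with CASR, with TRBJ1-2 in mouse 8 (0.217% and 0.240%). These 4 clones were also found in both CD4+ tumors of their mouse, and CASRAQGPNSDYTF was at 0.292% and 0.198% there. Each leading clone of a CD4+ group was at no more than 0.000777% in any CD8+ tumor of its mouse.

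The abundant CD8+ clones were detected in CD4+ libraries only at low levels. Of the 34 clones, 20 were found in a CD4+ tumor repertoire, the highest at 0.0271%, and 1 in a CD4+ dLN. Summed, they made up 0% to 0.0314% of a CD4+ tumor repertoire. Carry-over between the sorted subsets was not tested directly. When clones at least 10 times less frequent than in the other subset of the same tissue and mouse were left out, each comparison between groups of the TRBV26 share kept its direction and its side of the threshold.

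The J segments of TRBV26 differed sharply between reads and clones in CD8+ tumors. By reads, the leading J segments of TRBV26 there were TRBJ1-6 with 31.95% ± 27.2, TRBJ1-2 with 14.98% ± 16.3 and TRBJ1-3 with 13.7% ± 16.9 (SD, n = 4 mice). The SDs were close to the means or above them, and the leading J segment differed between mice. TRBJ1-6 held 3.46%, 69.0%, 27.4% and 28.0% of the TRBV26 reads in mice 5 to 8, and TRBJ1-5 held 44.5% in mouse 8 and 0.0215% to 8.01% in the others. What the mice shared was the TRBJ1 cluster, which lies downstream of TRBD1, with 96.0%, 98.3%, 74.6% and 83.5% of TRBV26 reads in mice 5 to 8. In the reads of all other V segments of CD8+ tumors it held 15.5% to 41.8%. By distinct clones, TRBJ1 segments made up 36.1% ± 0.757 of TRBV26, and the leading J segments were TRBJ2-7 with 23.8% ± 1.30, TRBJ2-1 with 15.4% ± 0.906 and TRBJ1-1 with 10.7% ± 1.08 (SD, n = 4 mice).

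In the other groups, TRBJ2-7 led TRBV26 by both measures as a group mean. In the CD4+ tumors of mouse 5 it held 12.3% of the reads, below TRBJ1-1 with 29.2% and TRBJ1-2 with 13.9%. By reads it held 23.5% ± 8.51 in CD4+ tumors, 23.4% ± 1.82 in CD4+ dLNs and 20.9% ± 0.960 in CD8+ dLNs (SD, n = 4 mice each). It was followed in CD4+ tumors by TRBJ1-1 with 15.1% ± 10.1 and TRBJ1-2 with 9.63% ± 4.13, in CD4+ dLNs by TRBJ2-3 with 9.80% ± 2.03 and TRBJ1-2 with 9.71% ± 2.88, and in CD8+ dLNs by TRBJ2-1 with 16.6% ± 2.10 and TRBJ1-1 with 9.48% ± 1.04. By clones TRBJ2-7 held 18.8% ± 0.884, 17.5% ± 1.15 and 21.2% ± 0.467 in the same order of groups. The next by clones were TRBJ1-1 and TRBJ2-4 in CD4+ tumors (11.0% ± 1.11 and 9.99% ± 1.65), TRBJ1-1 and TRBJ2-5 in CD4+ dLNs (11.4% ± 1.21 and 11.1% ± 0.590), and TRBJ2-1 and TRBJ1-1 in CD8+ dLNs (14.97% ± 1.16 and 11.1% ± 0.491).

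Distinct TRBV26 clones paired with J segments in other proportions than distinct clones of all other V segments did. In CD8+ dLNs, 6 of 13 J segments were called, 46.2% (limma, adjusted p under 0.05), with 3 higher and 3 lower in TRBV26. By the exact permutation test 0 of 13 were called, and 6 had an unadjusted p under 0.05. These 6 were at the smallest p that 4 and 4 mice allow. With only 6 of 13 there, none can pass the adjustment, so this count cannot weigh for or against the limma calls. TRBJ1-3 made up 6.45% ± 0.434 of TRBV26 clones and 4.26% ± 0.108 of other clones (SD, n = 4 mice; log2 ratio 0.59 ± 0.05 SE, limma, adjusted p = 2.84e-05). TRBJ1-2 was higher by a log2 ratio of 0.58 ± 0.08 (SE; limma, adjusted p = 0.000258) and TRBJ1-1 by 0.21 ± 0.04 (adjusted p = 0.00237). TRBJ2-3 made up 5.48% ± 0.794 of TRBV26 clones and 8.66% ± 0.276 of others, a log2 ratio of -0.67 ± 0.10 (SE; limma, adjusted p = 0.000354), and TRBJ2-5 and TRBJ2-4 were also lower, with log2 ratios of -0.41 and -0.26. With the mouse as a block 7 were called, these 6 and TRBJ1-6, higher by 0.27 (limma, adjusted p = 0.0423). All 3 that were higher without the block belong to the TRBJ1 cluster and all 3 that were lower to the TRBJ2 cluster.

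In CD4+ dLNs, 6 of 12 J segments were called, 50%, again with 3 higher and 3 lower. TRBJ1-2 made up 7.95% ± 0.857 of TRBV26 clones and 5.13% ± 0.133 of other clones (SD, n = 4 mice; log2 ratio 0.62 ± 0.08 SE, limma, adjusted p = 0.000161). TRBJ1-3 and TRBJ1-1 were higher by log2 ratios of 0.50 and 0.24, and TRBJ1-5, TRBJ2-1 and TRBJ2-5 were lower, with log2 ratios of -0.80, -0.31 and -0.26. TRBV26 and other clones came from the same libraries, and with the mouse as a block 4 were called. TRBJ1-1 and TRBJ2-5 then lost their call (limma, adjusted p = 0.0871 and 0.0702). Without mouse 8, 3 J segments were called.

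In CD4+ tumors, 4 of 12 J segments were called by limma, 33.3%, and 0 by the exact permutation test, where 4 had an unadjusted p under 0.05. As in CD8+ dLNs, too few J segments reached the smallest exact p for any to pass the adjustment. TRBJ1-2 was higher in TRBV26 clones, with 8.42% ± 1.64 against 5.95% ± 0.516 (SD, n = 4 mice; log2 ratio 0.48 ± 0.14 SE, limma, adjusted p = 0.0246). TRBJ1-5 was lower, with 2.06% ± 0.304 against 3.56% ± 0.226 (log2 ratio -0.80 ± 0.12 SE, limma, adjusted p = 0.000709), and TRBJ2-1 and TRBJ2-5 were lower by log2 ratios of -0.45 and -0.30. With the mouse as a block TRBJ2-5 lost its call (limma, adjusted p = 0.0550) and TRBJ1-3 gained one, higher by 0.47 (adjusted p = 0.0117). Without mouse 5, 6 or 7 the number called was 2, 1 or 2. TRBJ1-2 was called higher in all 3 groups tested, which share mice. In CD4+ tumors no J segment, TRBJ1-2 included, was called higher without mouse 5, without mouse 6 or on the right side only. TRBJ1-6, which led the CD8+ tumor reads, was called in CD8+ dLNs with the block and in none of the 3 groups without it.

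**Figure D4:**
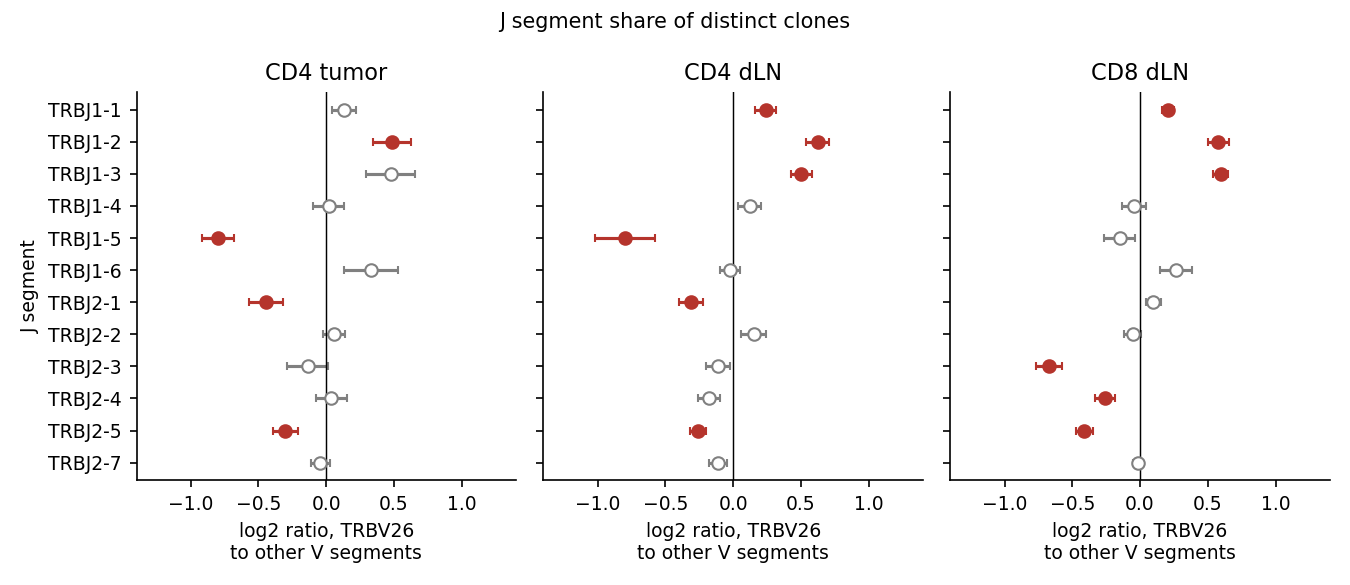
Log2 ratio of the share of each J segment among distinct TRBV26 clones to its share among distinct clones of all other V segments, with the limma SE, in CD4+ tumors, CD4+ dLNs and CD8+ dLNs (n = 4 mice each), with filled red points for adjusted p under 0.05. The 12 J segments found in all 3 groups are drawn, and TRBJ1-2 lies between 0.48 and 0.62 in each of them.

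The CDR3 of distinct TRBV26 clones was shorter on average than that of other clones in the same repertoires. In CD4+ tumors the mean length was 13.53 ± 0.0295 amino acids against 13.92 ± 0.0315 for other V segments, a difference of -0.392 (SD, n = 4 mice; exact two-sided permutation test, p = 0.0286, adjusted p = 0.0357 over 5 tests). In CD4+ dLNs the difference was -0.265 and in CD8+ dLNs it was -0.125, both with the same exact permutation p and adjusted p. The mouse values did not overlap in any of these 3 comparisons. With the mouse as a block the exact sign-change p was 0.125 for each, the smallest that 4 pairs allow. The differences were a fraction of the spread of lengths within TRBV26, which had an SD of 1.30 to 1.36 amino acids as group means in these groups. With the median in place of the mean they were -0.125, 0 and 0 amino acids, with an exact permutation p of 1 each. Ordered from the shortest mean CDR3, TRBV26 was 4th, 6th and 11th of 24 V segments in CD4+ tumors, CD4+ dLNs and CD8+ dLNs.

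Between groups, TRBV26 clones had longer CDR3s in CD8+ than in CD4+ dLNs. The mean length was 13.80 ± 0.0195 amino acids in CD8+ dLNs and 13.53 ± 0.0314 in CD4+ dLNs, a difference of 0.270 (SD, n = 4 mice; exact permutation p = 0.0286, adjusted p = 0.0357). Clones of the other V segments were also longer in CD8+ dLNs, with 13.93 ± 0.0231 against 13.80 ± 0.0267 in CD4+ dLNs, a difference of 0.130 (SD, n = 4 mice) with no overlap of mouse values. Whether the difference of TRBV26 was larger than theirs was not tested. With the mouse as a block the exact sign-change p was again 0.125, and with the median the difference was 0. CD4+ tumors and CD4+ dLNs differed by -0.00797 (exact permutation p = 0.714), less than the SD between mice. In CD8+ tumors the mean over distinct TRBV26 clones was 13.82 ± 0.0628 amino acids (SD, n = 4 mice).

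By reads, the lengths in CD8+ tumors were of another kind. CDR3s of 15 amino acids, the length of all 17 abundant clones with the R6-G8-N10 pattern, held 73.0% ± 18.0 of the TRBV26 reads in CD8+ tumors, 24.4% ± 1.79 in CD8+ dLNs, 13.4% ± 6.66 in CD4+ tumors and 13.0% ± 2.42 in CD4+ dLNs (SD, n = 4 mice each). In CD8+ tumors mouse 7 had the lowest value, 47.9%, and the other mice had 75.8% to 90.6%. By distinct clones the share of this length was 21.6% in CD8+ tumors and 21.8% in CD8+ dLNs. Of the 34 abundant clones, 22 had 15 residues, 7 had 13 and 1 had 14.

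**Figure D5:**
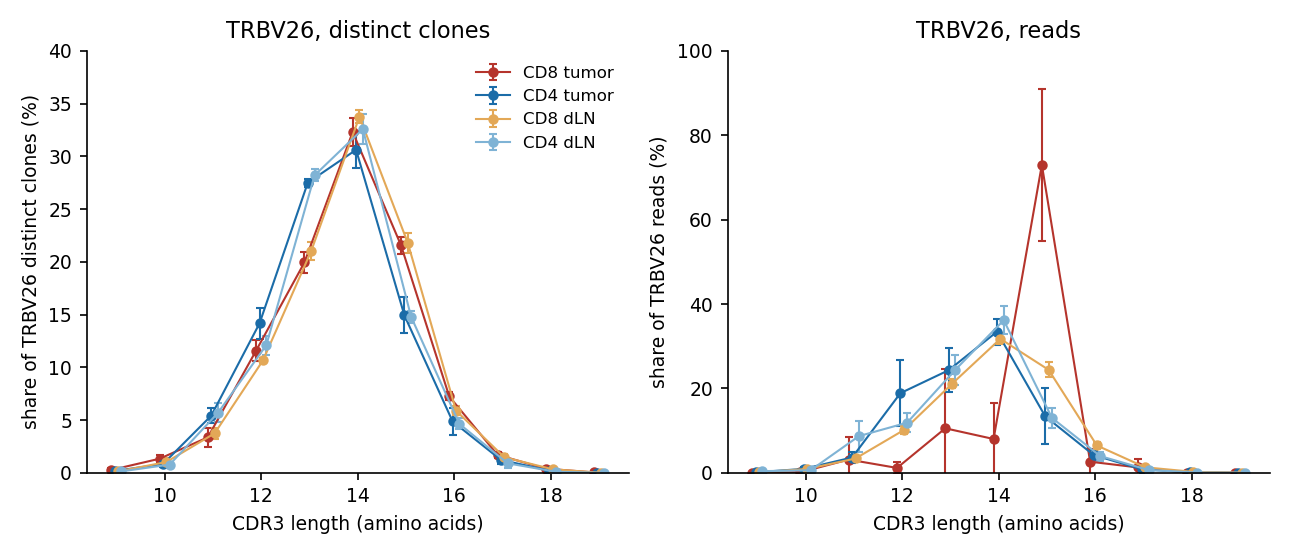
Share of distinct TRBV26 clones (left, %) and of TRBV26 reads (right, %) by CDR3 length in amino acids, as mean ± SD of 4 mice in each group. By clones the 4 groups peak at 14 amino acids, whereas by reads the CD8+ tumors peak at 15 with 73.0%.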

How the data were processed

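TCRβ repertoires of sorted CD4+ and CD8+ T cells were measured in 48 libraries, 16 of dLNs and 32 of tumors, with 2 fragments per tumor. Libraries were made by template switching with primers in the constant region and nested PCR, without molecular identifiers. Per the study's methods the authors trimmed reads with Cutadapt 3.2, filtered them with PRINSEQ and assembled clones with MiXCR and VDJtools against IMGT mouse segments. The deposited files give read counts per productive clone, and the deposited fraction is the count divided by the library total. They hold the reads before the authors' stated down-sampling, at 326582 to 4840722 per library.

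Each library was drawn without replacement to 6 reads per sorted cell, with cell numbers taken from the study's supplementary table. This left 131070 to 2035380 reads, so that 1 read was 4.91e-05% to 0.000763% of a library. Reads of the fragments of a tumor were added, entries with the same V, J and CDR3 bases were 1 clone, and left and right were averaged, giving n = 4 mice per group. Shares of V segments and J segments were tested with limma 3.58.1 on log2(percent + 0.01), over all segments, with Benjamini-Hochberg adjustment and a threshold of 0.05, and single values with exact two-sided permutation tests over mice. The limma fit and the exact permutation test were tested on simulated data. edgeR 4.0.16 and DESeq2 1.42.0 on the drawn counts were alternatives. Python 3.11.15, pandas 2.3.3, scipy 1.17.1 and R 4.3.3 were used. Other alternatives were the undrawn reads, another draw, other pseudocounts and filters, each side alone, clones by amino acid sequence, other thresholds, leaving out each mouse, and leaving out clones rarer than in another mouse or subset. An alternative that left out clones 1 base from a clone with 100 times their reads was chosen after seeing the data.

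Samples with the same mouse number came from the same animal per the labels. The deviations of log2 clone shares from group means over 22 V segments correlated within mice with a mean r of 0.410 between CD8+ and CD4+ dLNs (0.279 to 0.581) and 0.274 between CD4+ tumors and CD4+ dLNs (0.170 to 0.328). The other pairs of groups had a lower mean r, each with a range that crossed 0. It was 0.187 between CD8+ tumors and CD8+ dLNs (-0.398 to 0.424) and 0.100 between CD8+ tumors and CD4+ dLNs (-0.259 to 0.267). Between the tumors it was 0.0398 (-0.153 to 0.193), and between CD4+ tumors and CD8+ dLNs -0.0167 (-0.146 to 0.162). Between different mice the mean r was -0.140 for the dLN pair and -0.0897 for the CD4+ pair. The deviations of the mice of a group sum to 0, so these negative means follow largely from the within-mouse values. They are no separate evidence of the pairing.

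TRBV26 and every list were chosen with earlier results of these data known. Named beside it were the V segments next to it in rank, the 2 V segments most like it, the 3 leading J segments of a group by reads and by clones and every J segment called. Clones named were the 5 most frequent of each mouse in CD8+ tumors, the most frequent of each other group, and abundant clones in similar pairs between mice. The clone LRGADERLFF was named as the clone nearest under the threshold, and TRBV5, TRBV4, TRBV20 and TRBV12-1 were named in the comparison of similar pairs after their values were seen.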

Additional observations from a re-analysis of the deposited data

Results flagged for a closer look

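Among 27 groups of 4 mice, 3 had 1 mouse whose gap to the nearest other mouse took more of the range than Dixon's 95% critical value for 4 samples, and it was mouse 7 in all 3. Chance passes this value in about 1 of 20 groups of unselected measures, but TRBV26 was chosen on its CD8+ tumor reads, so these gaps are a description and not a test. The CD8+ tumor read share of TRBV26 in mouse 7 was 2.96%, against 22.7%, 24.8% and 25.8% in mice 5, 6 and 8, the gap being 0.867 of the range. Its 10 most frequent clones held 62.9% of the TRBV26 reads in CD8+ tumors, against 96.6% to 97.7% in the others, a gap of 0.968. Its abundant clones held 57.6% of the TRBV26 reads there, against 96.4% to 97.3%, a gap of 0.979. These 3 values rest on the same reads and are not independent. Both sides of mouse 7 were low, its CD8+ tumors held 89 abundant clones of all V segments against 56 to 79 in the others, and why it differed was not tested.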

How the results depend on the processing

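For 17 results, 222 of 273 values under an alternative kept their direction and their side of the threshold, or moved by less than the spread or by at most 1.5 times, with 39 of 68 when a mouse was left out. With the mouse as a block, the log2 ratio of the clone share in CD4+ tumors against CD4+ dLNs was -0.23 (limma, adjusted p = 0.0181), and the block kept each call on the TRBV26 share. It called 4, 4 and 7 J segments in CD4+ tumors, CD4+ dLNs and CD8+ dLNs, of which 3, 4 and 6 were among the 4, 6 and 6 called without it. The 4 CDR3 length differences called without it, -0.392 in CD4+ tumors, -0.265 in CD4+ dLNs, -0.125 in CD8+ dLNs and 0.270 between the dLNs, had a p of 0.125, the smallest that 4 pairs allow. Without 1 mouse they ranged from -0.398 to -0.384, -0.276 to -0.247, -0.129 to -0.120 and 0.257 to 0.284, and were no longer called (exact permutation test, adjusted p = 0.125). The read share in CD4+ tumors against CD4+ dLNs, not called, reversed to 0.060 with edgeR, 0.096 with DESeq2 and 0.0082 on the left side only, and ranged from -0.149 to 0.070 without 1 mouse, above 0 without mouse 6 or 7. The clone share was no longer called with edgeR (-0.080) or DESeq2 (-0.071), and ranged from -0.31 to -0.20 without 1 mouse. J segments called numbered 0 by the exact permutation test in CD4+ tumors and CD8+ dLNs (4 and 6 at an unadjusted p under 0.05) and 0 by limma on the right side only in CD4+ tumors (4 unadjusted). In the exact test too few J segments reached the smallest possible p for any to pass the adjustment. Without 1 mouse they numbered 1 to 4 in CD4+ tumors and 3 to 6 in CD4+ dLNs. The CDR3 length of CD4+ tumors against CD4+ dLNs, not called, reversed to 0.0304 on the left side only and ranged from -0.0157 to 0.00487 without 1 mouse. By median length the differences were -0.125 in CD4+ tumors and 0 in CD4+ dLNs, CD8+ dLNs and between the dLNs. The clone share of CD8+ tumors was 2.57% with clones by amino acid sequence, and their mean read share ranged from 16.8% to 24.4% without 1 mouse. From 0.5%, abundant clones numbered 18 with 4 similar pairs. There were 11 pairs with identical sequences only, 29 with up to 2 amino acids, and 5 to 14 without 1 mouse. The cause of these changes was not tested, apart from fewer clones entering where a mouse was left out. With 3 mice per side the exact test cannot go below 0.1.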
